A study of Homo sapiens with 8 samples.

Results

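The VEGF and PDGF growth factors are secreted, disulfide-linked dimers of a shared cystine-knot family. The 7 ligand genes VEGFA, VEGFB, VEGFC, PDGFA, PDGFB, PDGFC and PDGFD were taken by gene name from a table of 31461 genes, whatever their values. All 7 were listed for both lines, and all 7 reached 1 FPKM in 2 or more of the 8 libraries, the filter on low values that left 14635 genes for testing. PDGFA passed it only through the H1299-labelled libraries. FPKM is a fragment count scaled by transcript length and by the size of the library, so levels of different genes can be set side by side. On GRCh38 the VEGF genes lie on different chromosomes, VEGFA (ENSG00000112715) at chr6:43770184-43786487, VEGFB (ENSG00000173511) at chr11:64234538-64238793 and VEGFC (ENSG00000150630) at chr4:176683538-176792727. The PDGF genes are PDGFA (ENSG00000197461) at chr7:497258-520296, PDGFB (ENSG00000100311) at chr22:39223359-39244751, PDGFC (ENSG00000145431) at chr4:156760454-156971394 and PDGFD (ENSG00000170962) at chr11:103907186-104164379.

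The libraries came from 2 human lung cancer lines whose genotype is given as WT, and the purpose stated for the series was a search for genes targeted by miR-29a-3p. The 4 groups were A549 with miR-29a-3p overexpressed, A549 with the control microRNA, H1299 with miR-29a-3p overexpressed, and H1299 with the control microRNA, each with 2 libraries. The microRNAs had been transfected, at a dose and for a time that the labels do not give. Both lines are epithelial tumour lines, so endothelial cells and fibroblasts, on which these ligands act, were not part of the design.

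VEGF ligands bind receptor tyrosine kinases of endothelial cells. VEGFA, through KDR and FLT1, is the main signal for blood vessel growth and is induced by low oxygen, VEGFC acts mainly on lymphatic vessels through FLT4, and VEGFB binds FLT1. PDGF chains bind PDGFRA and PDGFRB on fibroblasts, pericytes and smooth muscle cells, and tumour cells are a common source of them. MicroRNAs of the miR-29 family repress mRNAs whose 3′ untranslated region (UTR) pairs with the seed, bases 2 to 8 of the microRNA, and are best known for repressing collagens.

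The mature microRNA is shown because its seed defines the sites below, with the seed in capitals. It lies on the minus strand at chr7:130876748-130876769 (GRCh38.p14, RefSeq). Its relatives miR-29b-3p and miR-29c-3p carry the same seed.
miR-29a-3p: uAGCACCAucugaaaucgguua

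The longest annotated 3′ UTR of each ligand (GENCODE release 29, GRCh38) was searched on the sense strand for TGGTGCTA (8mer), TGGTGCT without the final A (7mer-m8), GGTGCTA alone (7mer-A1) and GGTGCT alone (6mer). An 8mer or 7mer-m8 was found once each in VEGFA, PDGFB, PDGFC and PDGFD, 4 of the 7 ligands. Among all tested genes with an annotated 3′ UTR, 1908 of 11632 (16.4%) held at least 1. Some of these ligands were chosen as reported miR-29 targets, so nothing is read from that excess. The 4 sites are shown with the match in capitals, since they are the only stretches of these UTRs with a full match to the seed.
VEGFA 8mer, chr6:43786284-43786313, plus strand: atttgttatcatttatttatTGGTGCTAct
PDGFC 8mer, chr4:156762144-156762173, minus strand: acatgtatttcattctcgtaTGGTGCTAga
PDGFB 7mer-m8, chr22:39225202-39225231, minus strand: atgcctgattcggacggccaaTGGTGCTtc
PDGFD 7mer-m8, chr11:103908020-103908049, minus strand: atatacttagatttctaagtaTGGTGCTct

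The sites differ in position and surroundings. The PDGFB match starts 132 bases after the stop codon in a UTR of 1983 bases, and the VEGFA match starts at base 1742 of 1925. In PDGFC it starts at base 937 of 2636 and in PDGFD at base 1666 of 2508. The 30 bases on either side were 78.3% A or U in VEGFA, 75.0% in PDGFC and 66.7% in PDGFD, against a median of 53.3% over the 2313 such sites of tested genes, and 35.0% in PDGFB. Only 3 of the 26 coding VEGFA transcripts with an annotated stop codon carried the VEGFA match, against 1 of 2 for PDGFC and 2 of 2 each for PDGFB and PDGFD. PDGFA held 3 6mers and no longer match, and the short UTRs of VEGFB (460 bases) and VEGFC (388 bases) held no match at all.

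**Figure D1:**
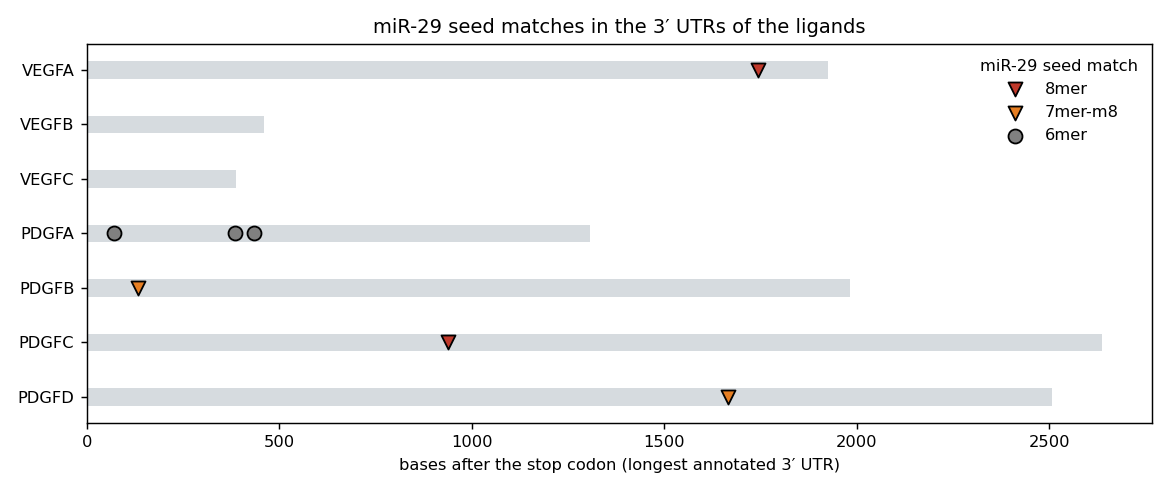
Longest annotated 3′ UTR of each ligand (grey bar, in bases after the stop codon) with its miR-29 seed matches (triangles: 8mer or 7mer-m8; circles: 6mer). VEGFA, PDGFB, PDGFC and PDGFD each hold 1 triangle, PDGFA holds 3 circles, and the bars of VEGFB and VEGFC are empty.

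Depth was estimated at 12105981 to 15523870 fragments per library, with 12021 to 12837 genes at 1 FPKM or more. Markers of the lines lay opposite to their labels. CDKN2A and MTAP, which are deleted in A549, summed to 25.5 to 30.2 FPKM in the 4 A549-labelled libraries and 0.164 to 0.516 FPKM in the 4 H1299-labelled ones, and of 8 genes that mark A549, 7 had the higher level in H1299-labelled controls. Each line is therefore named as its libraries were labelled, and a statement on a line holds for the label only. Of the 6 endothelial markers, the summed level was 0.208 to 0.468 FPKM over the 8 libraries. The leukocyte marker PTPRC stood at 0 in 6 libraries and at 0.0067 FPKM in the H1299-labelled ones with miR-29a-3p. In the A549-labelled libraries a PTPRC value of 0 can also mean that it was not listed. The 6 leukocyte markers summed to 24.8 and 26.2 FPKM with miR-29a-3p against 8.79 and 8.93 FPKM in H1299-labelled controls, and to 23.8 and 21.3 FPKM against 19.2 and 19.6 FPKM in the A549-labelled libraries, nearly all of it CD68, a lysosomal protein that epithelial lines also express. The 7 fibroblast and pericyte markers summed to 3.60 and 3.81 FPKM against 2.83 and 2.45 FPKM in the H1299-labelled libraries and to 0.676 and 0.682 FPKM against 0.913 and 0.831 FPKM in the A549-labelled ones. The part of either sum in the results was not tested. For delivery of the microRNA, 10 collagen-related genes reported as miR-29 targets were counted. They were chosen with earlier results of these data known, so their falls are not an independent check of delivery. Of the 7 tested, 6 fell in the A549-labelled libraries and 6 in the H1299-labelled ones, and none rose. Over all genes 8.66% were called lower in the A549-labelled and 24.8% in the H1299-labelled libraries. COL1A1, COL4A1, COL4A2 and COL5A1 were under 1 FPKM in all A549-labelled libraries and passed the filter only through the H1299-labelled ones. LOXL2, a collagen cross-linking enzyme, had 5.93 and 6.26 FPKM with miR-29a-3p against 23.5 and 23.7 FPKM in A549-labelled controls, and 27.3 and 25.4 FPKM against 107 and 103 FPKM in the H1299-labelled ones.

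VEGFB and VEGFC had the highest means of the ligands in every group. In the A549-labelled libraries VEGFC led, at a mean of 20.6 FPKM with miR-29a-3p and 13.0 FPKM in controls, followed by VEGFB at 13.3 and 9.77 FPKM. The other 5 ligands lay between 0.535 and 2.28 FPKM with miR-29a-3p and between 0.772 and 3.51 FPKM in controls. In the H1299-labelled libraries VEGFC came first with miR-29a-3p (18.2 FPKM, with VEGFB at 9.55 FPKM), and VEGFB came first in controls (17.2 FPKM, with VEGFC at 13.2 FPKM). VEGFB and VEGFA overlapped there with miR-29a-3p, at 9.47 and 9.63 FPKM for VEGFB and 9.59 and 8.55 FPKM for VEGFA. PDGFD and PDGFC, the lowest there, overlapped as well. In the H1299-labelled controls no neighbours in the order overlapped, with PDGFB at 2.17 and 2.48 FPKM next to PDGFD at 2.04 and 2.06 FPKM. In the A549-labelled libraries the neighbours VEGFA (1.20 FPKM in both) and PDGFD (1.21 and 1.01 FPKM) overlapped in controls, and none did with miR-29a-3p.

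**Figure D2:**
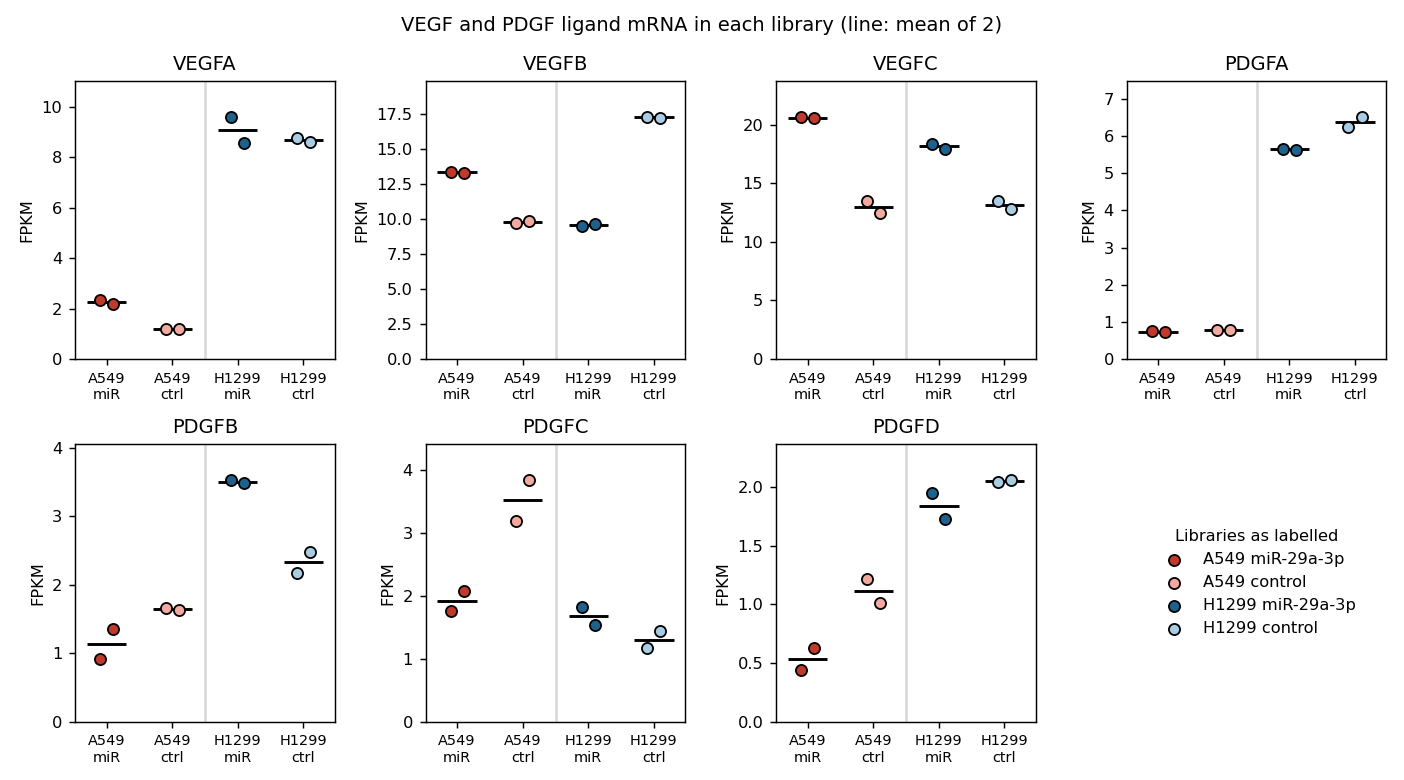
FPKM of each ligand (vertical axis, from 0) in the 2 libraries of each group (points) with the group mean (line). VEGFC is higher with miR-29a-3p in both lines, VEGFB is higher in the A549-labelled libraries (13.3 against 9.77 FPKM) and lower in the H1299-labelled ones (9.55 against 17.2 FPKM).

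In the A549-labelled libraries the 3 VEGF genes rose after miR-29a-3p, and 2 PDGF genes, PDGFC and PDGFD, fell. A gene was called at an adjusted p under 0.05 in limma, a linear model of log2(FPKM + 1) over all 14635 genes with Benjamini-Hochberg adjustment. Of the 7 ligands, 5 were called, against 16.0% of all genes tested. The 3 rises stand against 7.30% of genes called higher and the 2 falls against 8.66% called lower. In RNA of whole cultures, fewer cells of a kind and less RNA per cell cannot be told apart.

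VEGFC, the lymphatic growth factor, had 20.6 and 20.6 FPKM with miR-29a-3p, against 13.5 and 12.5 FPKM in the A549-labelled controls. Both treated libraries lay above both controls, and the log2 fold change was 0.63 ± 0.054 (SE, limma, adjusted p = 0.0014). VEGFA had 2.35 and 2.20 FPKM with miR-29a-3p and 1.20 FPKM in both controls, without overlap. Its log2 fold change was 0.57 ± 0.067 (SE, limma, adjusted p = 0.0037), and the ratio of mean FPKM was 1.89, since the added 1 FPKM understates the change of low genes. With 0.1 FPKM added in its place the log2 fold change was 0.87. VEGFA is the 1 ligand that carried an 8mer and rose. VEGFB had 13.3 and 13.3 FPKM with miR-29a-3p against 9.73 and 9.81 FPKM in controls, a log2 fold change of 0.41 ± 0.042 (SE, limma, adjusted p = 0.0024). Among the 14635 genes, 97.8% had a lower log2 fold change than VEGFA, 94.5% a lower one than VEGFB and 98.4% a lower one than VEGFC.

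PDGFC, a ligand that is activated by proteolysis and binds PDGFRA, had 1.76 and 2.08 FPKM with miR-29a-3p, against 3.19 and 3.84 FPKM in the A549-labelled controls. The groups did not overlap, the ratio of means was 0.547, and the log2 fold change was -0.62 ± 0.11 (SE, limma, adjusted p = 0.015). That call was lost without miR-29a-3p library 1 (adjusted p = 0.077), without control library 2 (adjusted p = 0.075) and with the line fitted alone (adjusted p = 0.059, limma). PDGFD, which binds PDGFRB, had 0.440 and 0.631 FPKM with miR-29a-3p and 1.21 and 1.01 FPKM in controls, a ratio of means of 0.482. Its log2 fold change was -0.46 ± 0.091 (SE, limma, adjusted p = 0.021) and -0.94 with 0.1 FPKM added in place of 1. Leaving out miR-29a-3p library 1 or either control ended that call (adjusted p = 0.089, 0.093 and 0.052, limma), as did keeping genes at any level, the line fitted alone and the replicate block (adjusted p = 0.054, 0.074 and 0.075). Its values rest on an estimated 25 and 30 fragments with miR-29a-3p and 58 and 49 in controls. PDGFD also shares exon sequence with DDI1 on the opposite strand, and VEGFA with an antisense transcript. Neither DDI1 nor that transcript had a value here. Without a stated strand setting, fragments of such overlapping genes cannot be told apart.

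PDGFB and PDGFA did not pass the test in the A549-labelled libraries. PDGFB, which carries a 7mer-m8 and binds both receptors, had 0.908 and 1.35 FPKM with miR-29a-3p and 1.66 and 1.63 FPKM in controls. Both treated libraries lay below both controls, but they differed from each other, and the log2 fold change was -0.32 ± 0.11 (SE, limma, adjusted p = 0.094). Without miR-29a-3p library 1 the log2 fold change was -0.17 (limma, adjusted p = 0.28), and without miR-29a-3p library 2 it was -0.47 (adjusted p = 0.037). PDGFA, the main ligand of PDGFRA, had 0.751 and 0.726 FPKM with miR-29a-3p and 0.773 and 0.770 FPKM in controls. The 95% interval of its log2 fold change, -0.16 to 0.11, holds 0.

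The summed FPKM of the 3 VEGF genes was 36.3 and 36.0 with miR-29a-3p against 24.5 and 23.5 in the A549-labelled controls. That of the 4 PDGF genes was 3.86 and 4.79 against 6.83 and 7.25. VEGFC alone made up 51.3% and 50.4% of all 7 ligands with miR-29a-3p and 43.2% and 40.6% in controls, while PDGFC made up 4.39% and 5.10% against 10.2% and 12.5%.

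In the H1299-labelled libraries VEGFC and PDGFB rose and VEGFB fell after miR-29a-3p. Of the 7 ligands, 3 were called, against 50.0% of all genes tested, so the share is near the background. The 2 rises stand against 25.1% of genes called higher, and the 1 fall against 24.8% called lower.

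VEGFB had 9.47 and 9.63 FPKM with miR-29a-3p, against 17.2 FPKM in both H1299-labelled controls. On the log2(FPKM + 1) scale this was the largest response among the 7 ligands in either line, a log2 fold change of -0.79 ± 0.042 (SE, limma, adjusted p = 3.7e-05) with a ratio of means of 0.554. With 0.1 FPKM added in place of 1 it was -0.84, and PDGFD (-0.94) and VEGFA (0.87) in the A549-labelled libraries changed by more. VEGFC had 18.4 and 18.0 FPKM with miR-29a-3p and 13.5 and 12.8 FPKM in controls, a log2 fold change of 0.44 ± 0.054 (SE, limma, adjusted p = 0.00091). PDGFB had 3.53 and 3.48 FPKM with miR-29a-3p and 2.17 and 2.48 FPKM in controls. Its groups did not overlap, and the log2 fold change was 0.44 ± 0.11 (SE, limma, adjusted p = 0.015). The PDGFB call was lost without miR-29a-3p library 1 (adjusted p = 0.063), miR-29a-3p library 2 (adjusted p = 0.057) or control library 1 (adjusted p = 0.078, limma).

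The other 4 ligands did not pass the test in the H1299-labelled libraries. VEGFA had 9.59 and 8.55 FPKM with miR-29a-3p and 8.76 and 8.61 FPKM in controls, with overlap and a 95% interval of -0.11 to 0.22 for the log2 fold change. PDGFC had 1.81 and 1.53 FPKM with miR-29a-3p and 1.17 and 1.44 FPKM in controls (limma, adjusted p = 0.15). PDGFD had 1.95 and 1.73 FPKM against 2.04 and 2.06 FPKM (limma, adjusted p = 0.38). PDGFA had 5.65 and 5.64 FPKM with miR-29a-3p and 6.23 and 6.50 FPKM in controls, and its adjusted p was 0.063, or 0.047 without the trend in the variance (limma). Of the 4 ligands with an 8mer or 7mer-m8, none was called lower in these libraries (limma), and none had a fall with an unadjusted p under 0.05. Among the 1908 tested genes with such a site, 38.1% were called lower there.

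**Figure D3:**
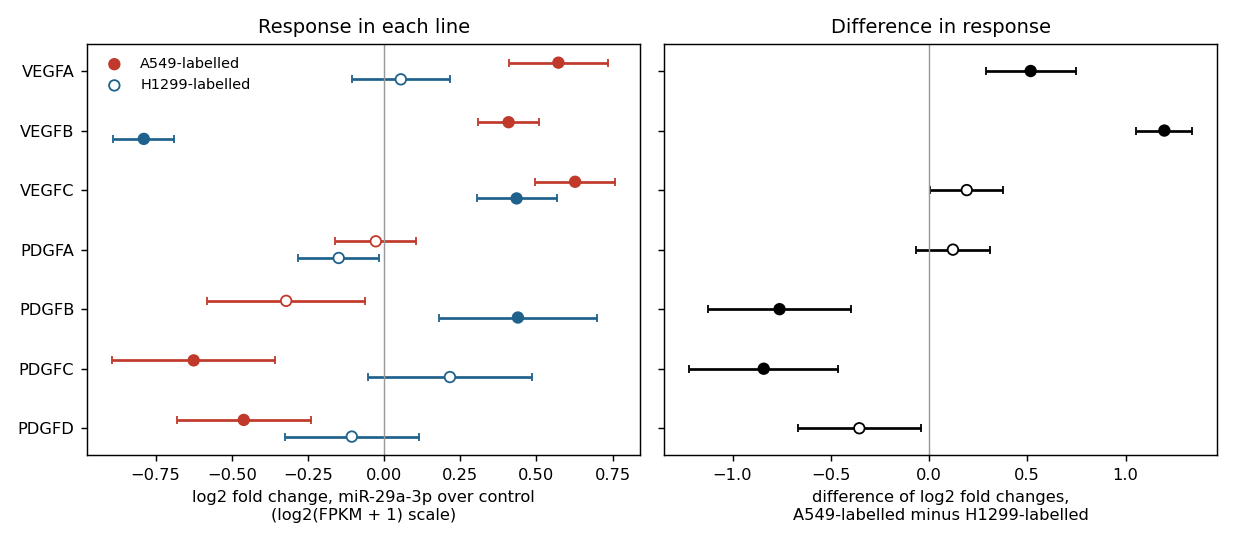
Left, log2 fold change of each ligand after miR-29a-3p over control in the A549-labelled (red) and H1299-labelled (blue) libraries. Right, the difference between these responses. Bars are 95% intervals from limma and filled points have an adjusted p under 0.05. VEGFC lies right of 0 in both lines, whereas VEGFB lies at 0.41 in the A549-labelled and -0.79 in the H1299-labelled libraries.

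The response differed between the lines for VEGFA, VEGFB, PDGFB and PDGFC. These 4 of 7 ligands passed the test of the difference (A549-labelled minus H1299-labelled), against 37.3% of all genes. The 2 positive differences stand against 18.1% of genes called higher and the 2 negative ones against 19.2% called lower. VEGFB had the widest gap, 1.20 ± 0.059 on the log2 scale (SE, limma, adjusted p = 9e-05), with both treated libraries above both controls under the A549 label and below them under the H1299 label. VEGFA differed by 0.52 ± 0.095 (SE, limma, adjusted p = 0.0071), or by 0.81 with 0.1 FPKM added in place of 1. For PDGFC the difference was -0.84 ± 0.16 (SE, limma, adjusted p = 0.0076) and for PDGFB -0.76 ± 0.15 (SE, limma, adjusted p = 0.0097). VEGFC did not pass this test (95% interval 0.01 to 0.38, adjusted p = 0.097), nor did PDGFD (-0.67 to -0.04, adjusted p = 0.075) or PDGFA (-0.07 to 0.31, adjusted p = 0.27, limma).

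Across all genes with a site, falls outnumbered rises in both lines, which sets the scale for the 4 ligands that hold one. Of the 1908 tested genes with an 8mer or 7mer-m8, 21.4% were called lower and 4.45% higher in the A549-labelled libraries, against 6.20% and 8.71% of the 7660 genes without any match. In the H1299-labelled libraries the shares were 38.1% lower and 20.6% higher, against 22.9% and 30.0%. Median log2 fold changes of genes with a site were -0.09 and -0.12 in A549-labelled and H1299-labelled libraries, and those of genes without one 0.02 and 0.04. The ligands with a site had -0.62 (PDGFC), -0.46 (PDGFD), -0.32 (PDGFB) and 0.57 (VEGFA) in the A549-labelled libraries, and 0.22, -0.11, 0.44 and 0.05 in the H1299-labelled ones.

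In controls the lines themselves differed in 6 of the 7 ligands, against 74.8% of all genes, so the count is near the background. PDGFC was higher in the A549-labelled controls (45.0% of genes were called so), and VEGFA, VEGFB, PDGFA, PDGFB and PDGFD were lower there (29.8% of genes). VEGFA had a mean of 1.20 ± 0.00081 FPKM in the A549-labelled and 8.68 ± 0.10 FPKM in the H1299-labelled controls (SD, n = 2 each), a log2 difference of -2.14 ± 0.067 (SE, limma, adjusted p = 6.7e-07). The A549-labelled mean rests on an estimated 43 fragments in each control, too few for so small an SD to be read as precision. PDGFA had 0.772 ± 0.0020 and 6.37 ± 0.19 FPKM (SD, n = 2 each), a log2 difference of -2.06 ± 0.055 (SE, limma). Its levels in the A549-labelled libraries were all under 1 FPKM, so it entered the test through the line where it is high. The PDGFA call, 1 of the 6, is therefore given as a description. PDGFC averaged 3.51 ± 0.46 in the A549-labelled and 1.30 ± 0.19 FPKM in the H1299-labelled controls (SD, n = 2 each, limma adjusted p = 0.00024).

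VEGFC did not differ beyond its spread in this comparison, at 13.0 ± 0.75 and 13.2 ± 0.49 FPKM (SD, n = 2 each, limma adjusted p = 0.75). The median of all genes was 0.17 higher in the A549-labelled controls and 0.03 higher once libraries were rescaled, and under that rescaling VEGFC was called lower there, at -0.19 (limma, adjusted p = 0.019). PDGFB had a log2 difference of -0.33 (limma, adjusted p = 0.029), which was lost without either A549-labelled control (adjusted p = 0.086 and 0.095), without H1299-labelled control 2 (adjusted p = 0.14) and when genes at any level were kept (adjusted p = 0.061). PDGFD averaged 1.11 ± 0.14 in the A549-labelled and 2.05 ± 0.012 FPKM in the H1299-labelled controls (SD, n = 2 each, limma adjusted p = 0.0017).

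The receptors of these ligands were barely expressed. KDR, the main VEGFA receptor, stood at 0.158 to 0.307 FPKM over the 8 libraries, FLT4 at 0.150 to 0.582 FPKM, PDGFRA at no more than 0.0552 FPKM and PDGFRB at no more than 0.0380 FPKM. None of these 4 reached the filter, and FLT1 was not analysed here. The remaining ligands of the superfamily were low as well, with PGF, the placental growth factor, at 0.165 to 0.501 FPKM and VEGFD at 0.0592 to 0.253 FPKM.

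The neuropilins, co-receptors that bind VEGF, were the only members of the VEGF receptor list that passed the filter. NRP1 had 2.01 and 2.27 FPKM with miR-29a-3p and 2.83 and 3.27 FPKM in the A549-labelled controls, a log2 fold change of -0.37 (limma, adjusted p = 0.020). In the H1299-labelled libraries it had 18.2 and 18.7 FPKM against 18.5 and 18.9 FPKM (limma, adjusted p = 0.86). NRP2 rose in the H1299-labelled libraries, at 15.9 FPKM in both with miR-29a-3p against 11.2 and 10.7 FPKM in controls (limma, adjusted p = 0.00071). Its values in the A549-labelled libraries were 0.912 and 0.789 FPKM with miR-29a-3p and 1.0 and 0.929 FPKM in controls (limma, adjusted p = 0.37).

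Among 9 genes that process these ligands, 6 were tested, and 1 rose and 1 fell in the A549-labelled libraries while 4 rose and 1 fell in the H1299-labelled ones. Over all genes 16.0% were called in the A549-labelled and 50.0% in the H1299-labelled libraries. The medians of the list were 0.02 and 0.25, against 0.00 for all genes in each line. FURIN, a protease that cleaves the precursors of PDGF chains and VEGFC, had 50.7 and 51.3 FPKM with miR-29a-3p against 28.3 and 27.5 FPKM in H1299-labelled controls (limma, adjusted p = 0.00018). PLAT, the protease tPA that activates PDGFC, had 1.43 and 1.42 FPKM with miR-29a-3p and 0.331 and 0.344 FPKM in controls there. It passed the filter only through these 2 treated libraries, so its call, 1 of the 4 rises, is given as a description. The median of 0.25, which includes PLAT, is not read as a result either. ADAMTS3, which activates VEGFC, fell in the A549-labelled libraries, with 1.61 and 1.44 FPKM against 3.05 and 2.71 FPKM (limma, adjusted p = 0.0044). It was nearly absent from the H1299-labelled ones, at no more than 0.0466 FPKM.

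Of 5 extracellular proteins that bind the ligands, 3 were called lower and 0 higher in the A549-labelled libraries, with a median of -0.74 (8.66% of all genes were called lower), and 3 rose and 1 fell in the H1299-labelled ones, with a median of 0.21 (25.1% and 24.8% of all genes). The matrix protein SPARC, which sets the median of -0.74, had 0.273 and 0.298 FPKM with miR-29a-3p and 1.20 and 1.10 FPKM in A549-labelled controls. It passed the filter only through these controls, so neither its fall nor that median is read as a result. THBS1, a matrix protein that binds VEGF and restrains vessel growth, had 4.42 and 4.05 FPKM with miR-29a-3p against 11.2 and 11.0 FPKM in A549-labelled controls. In the H1299-labelled libraries it had 3.07 and 2.56 FPKM against 0.737 and 0.907 FPKM, so the responses had opposite signs (difference -2.28, limma, adjusted p = 0.00012). The proteoglycan perlecan, HSPG2, had 11.4 and 11.1 FPKM with miR-29a-3p against 23.3 and 20.4 FPKM in A549-labelled controls, and 20.5 and 20.6 FPKM against 15.5 and 15.9 FPKM in the H1299-labelled ones (limma, difference -1.27, adjusted p = 0.00027). CCN2, which binds VEGFA, fell in the H1299-labelled libraries, with 4.24 and 4.74 FPKM against 11.3 and 10.5 FPKM (limma, adjusted p = 4.2e-05).

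Of 10 tested genes of receptor-proximal signalling, none passed the test in the A549-labelled libraries (limma, 1 higher and 1 lower at an unadjusted p under 0.05, median -0.15), where 16.0% of all genes were called. In the H1299-labelled libraries 4 rose and 2 fell (median -0.01), where 50.0% of all genes were called, so both counts are near the background. The adaptor SHC1 had 55.4 and 55.3 FPKM with miR-29a-3p against 18.6 and 20.5 FPKM in H1299-labelled controls (limma, adjusted p = 1.2e-05). PLCG1, a phospholipase recruited by these receptors, rose by 0.71 and the kinase SRC by 0.48 on the log2 scale (limma, adjusted p = 0.00032 and 0.0010).

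Of 7 other angiogenic ligands, 4 were tested. In the A549-labelled libraries 2 rose and 0 fell (median 0.50), and in the H1299-labelled ones 1 rose and 1 fell (median 0.25), against 16.0% and 50.0% of all genes called. FGF2, a fibroblast growth factor, had 12.3 and 14.2 FPKM with miR-29a-3p against 6.08 and 6.59 FPKM in A549-labelled controls, and 12.7 and 12.9 FPKM against 17.0 and 17.5 FPKM in the H1299-labelled ones (limma, difference 1.36, adjusted p = 0.00030). CXCL8, an angiogenic chemokine, rose in both, to 3.83 and 4.03 FPKM against 2.08 and 2.01 FPKM in A549-labelled controls and to 122 and 103 FPKM against 45.3 and 36.0 FPKM in the H1299-labelled ones. EFNA1 had log2 fold changes of 0.30 and 0.47 (limma, adjusted p = 0.36 and 0.093).

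VEGFA is a known target of the hypoxia-inducible factors and of the stress factor ATF4, so both sets of genes were counted beside it. Of 10 tested hypoxia-induced genes, 1 rose and 1 fell in the A549-labelled libraries (median 0.15), and 5 rose and 2 fell in the H1299-labelled ones (median 0.19), against 16.0% and 50.0% of all genes called in either direction. ADM, the vasodilator adrenomedullin, fell in the H1299-labelled libraries, with 5.26 and 5.07 FPKM against 12.3 and 11.8 FPKM (limma, adjusted p = 0.00016). The glycolytic enzyme PGK1 had 149 and 151 FPKM there against 97.8 and 95.3 FPKM (limma, adjusted p = 5.5e-05). The carbonic anhydrase CA9, 1 of the 5 rises, had 3.99 and 3.04 FPKM with miR-29a-3p and 0.549 and 0.793 FPKM in controls. It passed the filter only through the 2 treated libraries, so it is given as a description. The median of 0.19, which includes CA9, is not read as a result either.

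The 8 hypoxia sensing genes held 1 rise and no fall in the A549-labelled libraries (median 0.01), and 2 rises and 3 falls in the H1299-labelled ones (median -0.33), which is near the 16.0% and 50.0% of all genes called. EPAS1, the factor HIF-2 alpha, had 54.9 and 58.0 FPKM with miR-29a-3p against 104 and 105 FPKM in H1299-labelled controls (limma, adjusted p = 0.00013), while in A549-labelled libraries its means were 0.473 FPKM with miR-29a-3p and 0.627 FPKM in controls. EGLN3, an oxygen-sensing hydroxylase, rose in the H1299-labelled libraries to 8.12 and 6.39 FPKM, against 2.76 and 2.26 FPKM in controls (limma, adjusted p = 0.00031). HIF1AN, an inhibitor of HIF, rose in both lines, by 0.36 and 0.48 on the log2 scale (limma, adjusted p = 0.0038 and 0.00022).

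ATF4 stress genes rose in the A549-labelled libraries (8 of 9, none fell, median 0.92) and mostly fell in the H1299-labelled ones (5 fell, 1 rose, median -0.27). Over all genes 7.30% were called higher in the A549-labelled and 24.8% lower in the H1299-labelled libraries. ASNS, which makes asparagine, had 16.7 and 16.7 FPKM with miR-29a-3p against 8.82 and 7.96 FPKM in A549-labelled controls, and 5.08 and 5.06 FPKM against 13.9 and 14.5 FPKM in the H1299-labelled ones (limma, difference 2.24, adjusted p = 4.1e-05). TRIB3, a pseudokinase induced by stress, had 16.9 and 14.9 FPKM with miR-29a-3p against 8.88 and 8.48 FPKM in A549-labelled controls, and 15.5 and 16.0 FPKM against 144 and 135 FPKM in the H1299-labelled ones. DDIT3, a transcription factor of the same response, had 8.33 and 9.27 FPKM against 3.98 and 3.58 FPKM, and 2.88 and 3.30 FPKM against 20.0 and 21.2 FPKM. The VEGFB response had the sign of the list's median in each line, with 0.41 in the A549-labelled and -0.79 in the H1299-labelled libraries. The VEGFA response had that sign only in the A549-labelled libraries (0.57). In the H1299-labelled ones VEGFA did not pass the test (0.055, limma, adjusted p = 0.54).

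**Figure D4:**
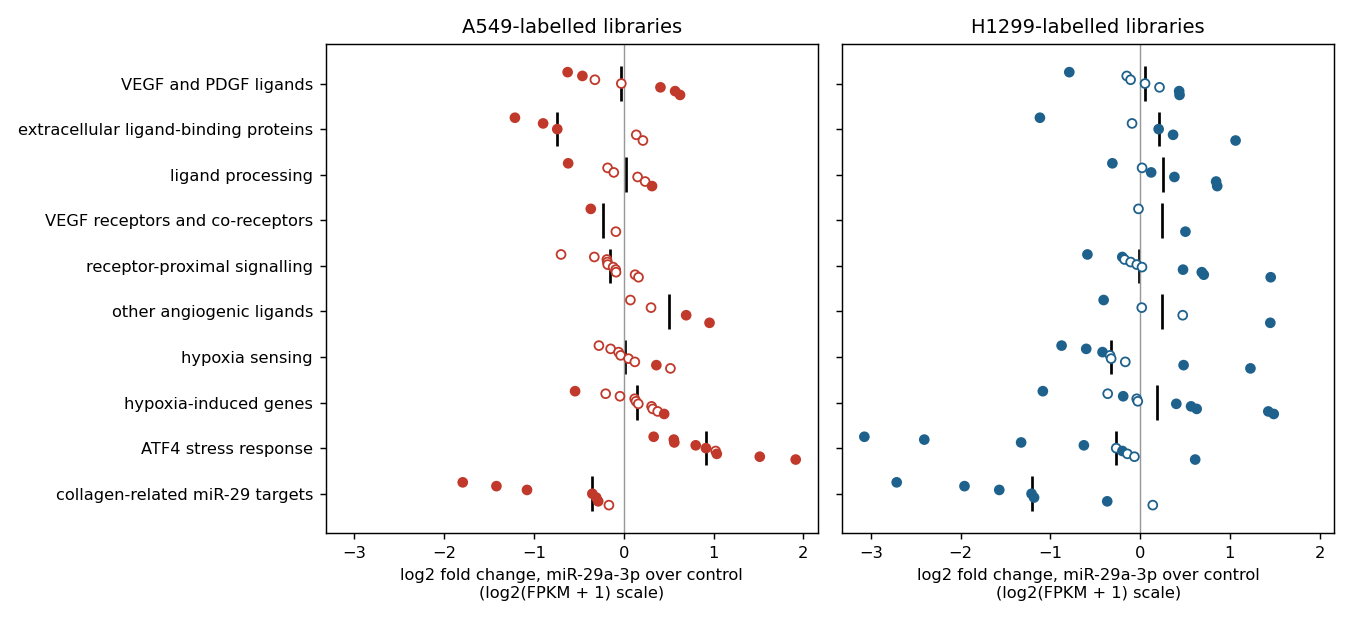
Log2 fold change after miR-29a-3p over control of each tested gene (points) in the ligands and in 9 lists of related genes, for the A549-labelled (left) and H1299-labelled (right) libraries. Filled points have an adjusted p under 0.05 in limma and black lines are list medians, which for the ATF4 stress genes lie at 0.92 and -0.27.

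Genes with the most similar profile were taken from 7429 protein-coding genes that varied over the 8 libraries, by Pearson correlation on the log2(FPKM + 1) scale. The 8 points share 2 lines and 2 treatments, so these correlations are descriptions. VEGFB was closest to DDIT3 (r = 0.995) and ADM2 (r = 0.993), a stress transcription factor and a peptide hormone. ADM2 had 2.66 and 2.37 FPKM with miR-29a-3p against 1.19 and 1.04 FPKM in A549-labelled controls, and 1.10 and 1.01 FPKM against 4.07 and 3.73 FPKM in the H1299-labelled ones. VEGFC was closest to ZNFX1 (r = 0.990) and ZC3HAV1 (r = 0.990), both antiviral RNA-binding proteins. Mean levels of ZC3HAV1 were 27.2 with miR-29a-3p and 14.3 FPKM in A549-labelled controls, and 22.4 and 14.4 FPKM in the H1299-labelled ones.

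The profile of VEGFA was most like those of ASAH1 and UBASH3B (r = 0.998 each), and that of PDGFA most like those of SMOC1 and NIPAL4 (r = 0.9998 each), which are set mainly by the gap between the lines. PDGFB was closest to PTBP3 (r = 0.992) and IFITM2 (r = 0.989), PDGFC to CENPK (r = 0.984) and CPSF6 (r = 0.970), and PDGFD to PTPRF (r = 0.992) and CHSY1 (r = 0.991). CENPK, a centromere protein, had a mean of 1.85 with miR-29a-3p and 4.0 FPKM in A549-labelled controls, and 1.31 and 0.714 FPKM in the H1299-labelled ones, the same order as PDGFC. Among the ligands themselves, VEGFA and PDGFA had r = 0.972 over the 8 libraries, while VEGFA and PDGFC ran opposite (r = -0.842). Their responses did not match that r, with ratios of mean FPKM of 1.89 for VEGFA and 0.957 for PDGFA in the A549-labelled libraries. In the H1299-labelled ones the ratios were 1.04 for VEGFA and 0.886 for PDGFA.

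**Figure D5:**
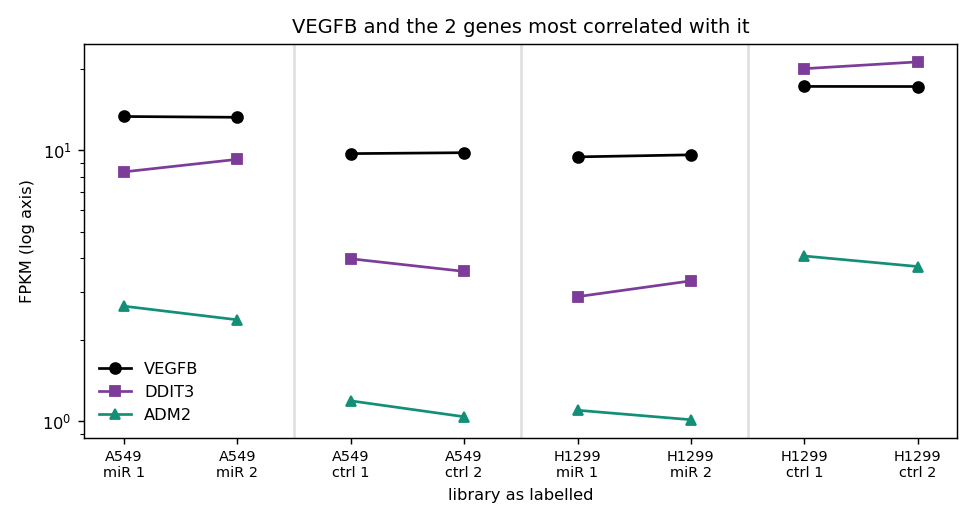
FPKM (log axis) of VEGFB, DDIT3 and ADM2 in each of the 8 libraries, with lines joining the 2 libraries of a group. All 3 genes are higher with miR-29a-3p than in controls in the A549-labelled libraries and lower in the H1299-labelled ones, VEGFB by less than the others.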

How the data were processed

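Total RNA (TRIzol) went into VAHTS libraries for Illumina sequencing, per the labels' protocols. The authors deposited 1 FPKM value for each gene in each of 8 libraries, per the file headers. StringTie and GRCh38 come from the submitters' processing notes, and no source used here names the aligner, the annotation or the strand setting. Where a gene was listed in only 1 line, its FPKM in the other was set to 0.

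Log2(FPKM + 1) was fitted with limma 3.58.1 in R 4.3.3, as 4 group means with a variance trend (residual degrees of freedom 4, prior 2.36), over 14635 genes. The design allowed for counts or normalised values. The script was tested on simulated data. Library totals were estimated from low FPKM values of genes with 1 transcript, read as whole fragments, and cover counting error only. The labels do not say that the 2 libraries of a group are separate cultures, and the p-values then reflect only library-to-library spread, which may be technical.

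The ligands and lists were chosen with earlier results of these data known. Named from each list were up to 3 tested genes with the smallest adjusted p in either line, plus the receptors and other ligands, and for each ligand the 2 genes with the highest correlation. UTRs came from GENCODE release 29, which held 31105 of the 31461 identifiers. The alternatives were another pseudocount, other filters, rescaled libraries, each line alone, no variance trend, a replicate block and leaving out each library.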

Additional observations from a re-analysis of the deposited data

Results flagged for a closer look

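The response to miR-29a-3p differed between the lines for 4 ligands by the test of the difference itself (A549-labelled minus H1299-labelled, log2 scale, limma). That is 4 of 7 ligands, against 37.3% of all genes called in this comparison. The difference was 1.20 for VEGFB, 0.52 for VEGFA, -0.84 for PDGFC and -0.76 for PDGFB. These 4 calls held under each alternative that could be fitted for the gene, with adjusted p-values of up to 0.0034 for VEGFB, 0.028 for VEGFA, 0.028 for PDGFC and 0.035 for PDGFB. VEGFB rose in 2 of 2 A549-labelled and fell in 2 of 2 H1299-labelled treated libraries. Of the 9 ATF4 stress genes, 8 were called in the same comparison with the sign of VEGFB, against 18.1% of all genes called higher, and whether they have a part in the VEGFB result was not tested.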

How the results depend on the processing

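Over the 4 comparisons, 364 recomputed ligand values kept their side of the threshold, 16 lost a call, 3 gained one, and no called value changed sign. The 3 VEGF rises in the A549-labelled libraries and the VEGFB and VEGFC calls in the H1299-labelled ones held throughout. A mean of at least 5 FPKM left 6085 genes and 3 ligands to test. Of these, 3 ligands and 1598 genes were called in the A549-labelled response, and 2 ligands and 3773 genes in the H1299-labelled one. The difference in response had 2 ligands and 2984 genes called, and the comparison of controls 2 ligands and 4923 genes. With each line fitted alone, 3 ligands and 1071 genes were called in the A549-labelled response. Leaving out 1 library at a time gave 3 to 6 ligands and 1066 to 1937 genes there, 2 to 3 ligands and 5892 to 7205 genes in the H1299-labelled response, 4 ligands and 4426 to 4646 genes in the difference, and 5 to 6 ligands and 10057 to 10887 genes between controls, with the lone remaining library of a group assumed to vary like the others. The replicate block called 4 ligands and 1261 genes in the A549-labelled response, against 5 and 2336 without it. Same-numbered libraries did not deviate together (correlations of 0.018 and -0.011), which cannot tell whether they were prepared together. With the UTR of the longest coding transcript, VEGFA held 0 sites in place of 1. The causes were not tested beyond the fewer genes or libraries. PDGFA and PDGFD in the A549-labelled libraries rest on an estimated 21 to 58 fragments each. VEGFA rests there on an estimated 99 and 78 fragments with miR-29a-3p and 43 in each control. The count test planned for a table of counts was not run, since the values are FPKM.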
